A study of Homo sapiens with 12 samples.

Results

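The DNA replication machinery was followed through 50 genes, chosen by symbol from the 15798 genes of a ribosome profiling count table and sorted into 9 groups by role. These genes were chosen with earlier results of the same data known, which limits any comparison with all genes. HCT116 cells, an established human colorectal cancer line, received trametinib at 100 nM, an inhibitor of the MEK kinases upstream of ERK, or only its solvent DMSO, and were harvested 24 h later. Each treatment had 3 dishes, and each dish gave an input library (IN, cytoplasmic RNA fragmented at random) and a footprint library (RPF, the stretches of mRNA that ribosomes protected from RNase I). Crossing treatment with assay gave 4 groups of 3 libraries, 12 in all. All 4 groups came from 1 cell line in the same medium and were exposed to cycloheximide, which arrests elongating ribosomes, just before lysis. The study calls its replicates biological, and a dish here means the material behind 1 replicate number of 1 treatment. The labels do not say whether these were separate cultures, and p-values measure the spread between these samples.

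Replication begins with licensing: the origin recognition complex (ORC), CDC6 and CDT1 load the ring-shaped MCM2-7 helicase onto DNA in G1, and geminin (GMNN) restrains CDT1 afterwards. At S phase entry the DBF4-CDC7 kinase, TICRR, TOPBP1 and MCM10 help to join CDC45 and the GINS complex to the ring, which then unwinds DNA for the polymerases, their sliding clamp PCNA and the clamp loader RFC. Many of these genes are textbook targets of E2F transcription factors, and ORC1, CDC6 and CDT1 proteins come and go with the cell cycle in most dividing cells.

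Levels are given as CPM (counts scaled to a common library size of 1000000, corrected by trimmed mean of M values, TMM), and changes as log2 of trametinib over DMSO with a standard error (SE). Depth, as the sum of all gene counts, ran from 2276693 to 2845568 per input library and from 10127477 to 19181588 per footprint library. The ERK target DUSP6, a check of the treatment, had 266, 222 and 199 CPM in DMSO input and 1.96, 1.27 and 0 CPM in trametinib input. The 6 epithelial markers summed to between 4921 and 7455 CPM in DMSO input and to between 8133 and 10259 CPM in trametinib input, where 4 of the 6 were called higher, as were 5 of 6 in footprints. All 6 leukocyte markers together reached at most 1.70 CPM there, and the 5 fibroblast markers listed summed to between 7.43 and 13.8 CPM in DMSO input and to between 20.4 and 27.0 CPM in trametinib input. That rise lay in COL3A1, a fibrillar collagen with 0, 1 and 0 input reads in DMSO and 31, 42 and 25 in trametinib, while COL1A1 did not pass the test (−0.20, adjusted p = 0.72) and the other 3 had at most 3 reads in any input library. The part of these marker genes in the changes of the replication genes was not tested.

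The DMSO dish numbered 1 stood apart from the other two DMSO dishes. The 50 genes held 0.353% of its input counts, against 0.619% and 0.615% in DMSO dishes 2 and 3, and 0.417% of its footprint counts, against 0.814% and 0.890%. In trametinib the 50 genes held 0.143%, 0.133% and 0.139% of input counts and 0.195%, 0.188% and 0.209% of footprint counts, so every trametinib library lay below every DMSO library, dish 1 included. Of the 49 genes tested, 41 had their lowest DMSO input level in dish 1 and 47 their lowest DMSO footprint level. The median gene had 0.616 times the mean input level of dishes 2 and 3 in dish 1, where the median of all 10663 genes tested was 0.989. In the same dish 9 of 12 listed ERK output genes had their highest DMSO input level and 2 of 12 their lowest. Of the 6 epithelial markers, 4 had their highest there and 0 their lowest. The median ratio to dishes 2 and 3 was 1.40 for the ERK output genes and 1.33 for the epithelial markers. The share of all genes tested with their highest level in dish 1 was not taken, and the cause was not tested. Leaving this dish out gave a larger fall for 45 of 49 genes in input and for 48 of 49 in footprints. The single-gene changes moved by between −0.34 (GINS2) and 0.15 (ORC2) in input and by between −0.39 (MCM4) and 0.095 (ORC4) in footprints, on the log2 scale.

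**Figure D1:**
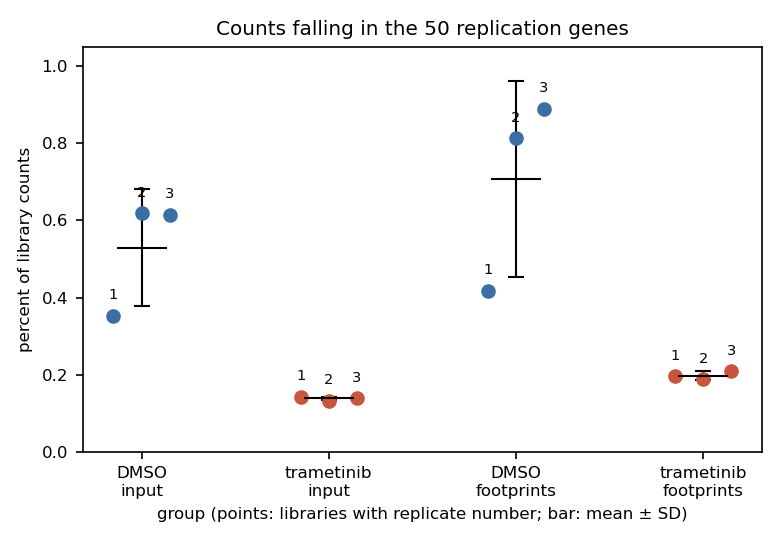
Percent of each library's gene counts that fell in the 50 replication genes (y axis) in the 4 groups (x axis). Points are libraries with their replicate numbers and bars are the mean ± SD of 3 libraries. DMSO replicate 1 lies at 0.353% in input and 0.417% in footprints, below the other DMSO libraries and above all trametinib libraries, which lie between 0.133% and 0.209%.

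Replication mRNAs were lower in trametinib almost throughout. Of 49 genes that passed the filter on low counts, 45 fell and 0 rose in input (edgeR, adjusted p under 0.05), while 16.8% of all 10663 genes tested fell and 15.4% rose. The median change of the 49 genes was −2.11, against −0.0015 over all genes tested, and the range ran from −4.84 for CDC45 to −0.26 for ORC4. The 4 genes that did not pass the test in input were ORC2, ORC4, RFC1 and DNA2. In bulk RNA, fewer cells of a type, such as cells in S phase, and less RNA per cell cannot be told apart.

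Footprints followed the same direction. Here 48 of 49 fell and 0 rose, beside 25.6% of all genes tested that fell and 23.9% that rose, with a median of −2.12 and a range from −5.19 for CDC45 to −0.07 for ORC4, the single gene that did not pass. In input, all trametinib libraries lay below all DMSO libraries for 47 of 49 genes, against 23.6% of all genes tested. In footprints this held for 47 of 49 genes, against 26.8%. Without DMSO dish 1, input gave 46 lower and 0 higher with a median of −2.38, and footprints 48 lower and 0 higher with a median of −2.37.

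To be tested, a gene needed 10 or more counts in 3 or more input libraries. Of the 49 genes, 41 met this in the trametinib libraries by themselves, and the other 8 (ORC6, CDC45, GINS2, GINS4, DBF4, POLE2, FEN1 and CLSPN) reached it through their higher DMSO counts, so their input falls are given as a description. Among the 41 genes, 37 fell and 0 rose in input with a median of −1.81, and 40 fell and 0 rose in footprints with a median of −1.94. The lowest input change among them was −3.59, for CDC6. The share of all genes that fell under this stricter filter was not taken. POLA2, the B subunit of DNA polymerase alpha, was the single gene below the filter. Its input level was 0.71, 4.95 and 5.02 CPM in DMSO and 0.39, 0 and 0.84 CPM in trametinib, and its footprint level was at most 1.76 CPM in any library. In Gencode v44, 83.2% of its coding bases are shared with a second gene symbol, and the authors did not count reads that more than 1 symbol could claim. PRIM1 shares 25.7% of its coding bases in this way and POLD1 12.5%, while the other 47 genes share none. The authors mapped to an earlier Gencode release, in which the sharing was not checked here, and how many reads it cost was not tested.

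**Figure D2:**
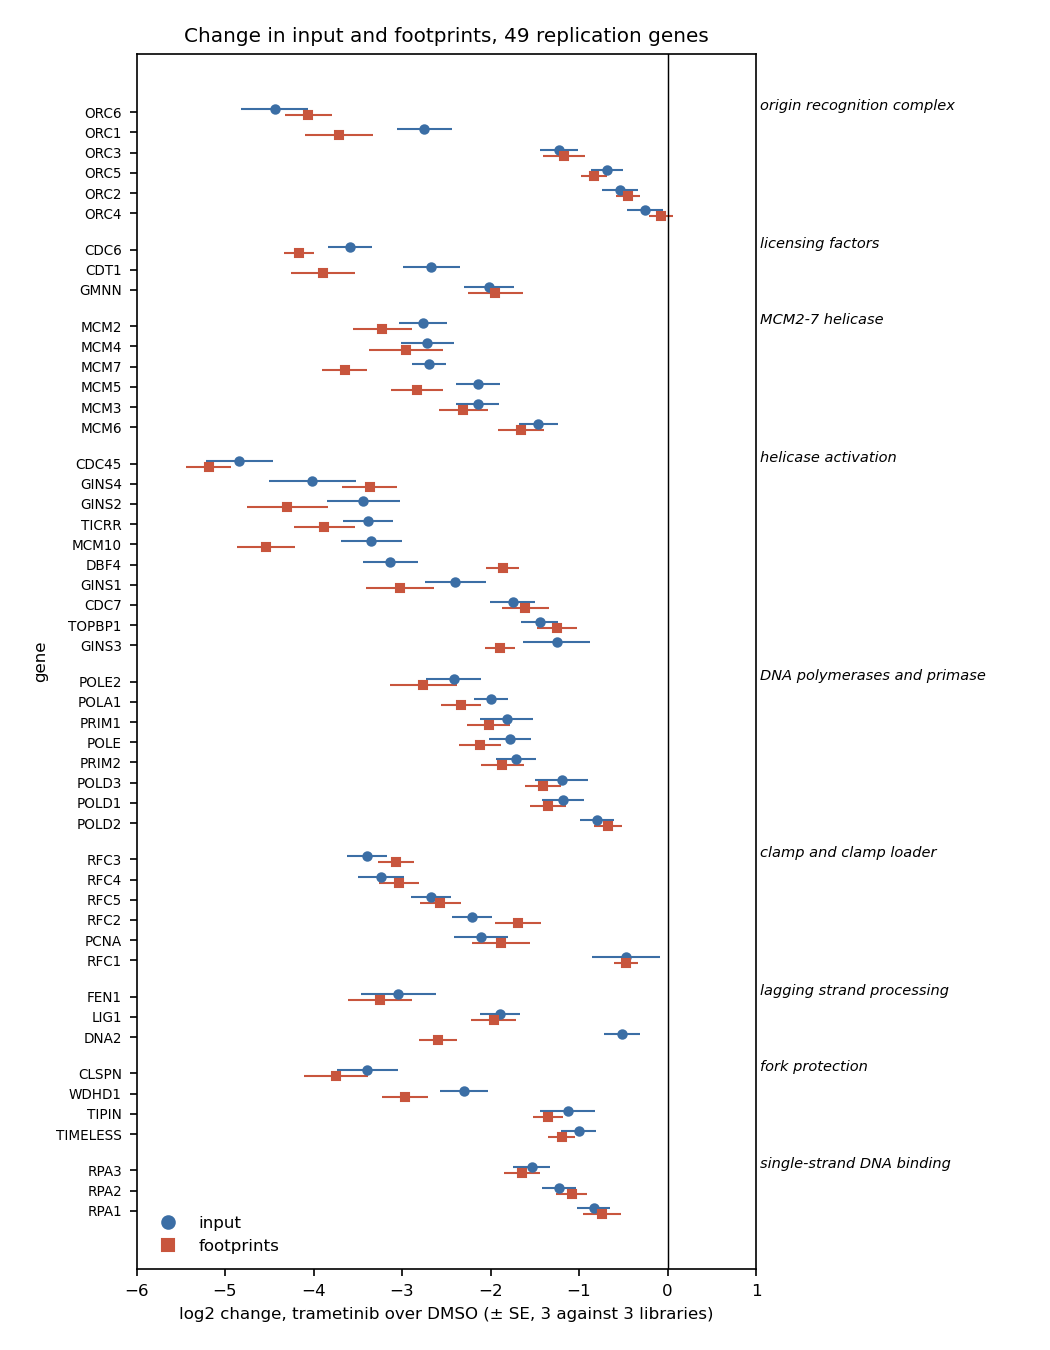
Log2 change of trametinib over DMSO (x axis) in input (circles) and in footprints (squares) for the 49 genes tested (y axis), grouped by role. Bars are ± 1 SE from edgeR fits of 3 against 3 libraries. All estimates lie below 0, from −5.19 for CDC45 footprints to −0.07 for ORC4 footprints.

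Promoter sequence was read for these genes because the members moved together. RefSeq (GRCh38.p14) windows from 250 bases before to 50 bases after the start were found for 43 of the 50 genes. An E2F-type motif, searched on both strands as TTTGGCGC, TTTCGCGC, TTTCCCGC or TTTGCCGC, was in 22 of these 43 windows (51.2%), against 3.99% of all 27305 genes with a window and 7.03% of the 8717 tested genes with one. A CHR motif (TTTGAA or TTCGAA) was in 2 of 43 (4.65%), against 19.5% of all genes and 14.9% of tested genes. TTTCGCGC can overlap its own reverse complement, as it does at MCM2. A match of letters is a description of the window and not a measured binding site. The 6 windows below belong to the called genes with the lowest input change among those with a match. They run from 250 bases before the start to 30 after it, on the gene's strand and 5′ to 3′, and capitals mark the E2F-type letters.
CDC6 (a helicase loading factor, chr17:40287629-40287908, plus strand): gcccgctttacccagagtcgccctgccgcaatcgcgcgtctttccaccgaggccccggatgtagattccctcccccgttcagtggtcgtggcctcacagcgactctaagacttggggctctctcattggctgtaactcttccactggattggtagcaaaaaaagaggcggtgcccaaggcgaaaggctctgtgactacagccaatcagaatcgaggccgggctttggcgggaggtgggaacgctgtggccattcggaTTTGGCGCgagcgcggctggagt
GINS2 (a GINS subunit, chr16:85688925-85689204, minus strand): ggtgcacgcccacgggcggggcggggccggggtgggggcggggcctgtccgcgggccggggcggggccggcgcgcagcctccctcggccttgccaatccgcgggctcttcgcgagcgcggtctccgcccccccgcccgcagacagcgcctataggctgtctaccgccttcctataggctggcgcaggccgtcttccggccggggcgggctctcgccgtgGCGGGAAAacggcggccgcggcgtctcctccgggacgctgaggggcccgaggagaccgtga
RFC3 (a clamp loader subunit, chr13:33817899-33818178, plus strand): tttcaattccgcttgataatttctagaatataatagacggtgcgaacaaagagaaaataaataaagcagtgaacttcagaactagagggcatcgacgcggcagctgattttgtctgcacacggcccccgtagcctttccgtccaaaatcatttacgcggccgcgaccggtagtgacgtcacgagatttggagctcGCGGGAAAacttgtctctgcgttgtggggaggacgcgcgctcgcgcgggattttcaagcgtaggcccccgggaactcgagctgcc
CLSPN (the checkpoint adaptor claspin, chr1:35769949-35770228, minus strand): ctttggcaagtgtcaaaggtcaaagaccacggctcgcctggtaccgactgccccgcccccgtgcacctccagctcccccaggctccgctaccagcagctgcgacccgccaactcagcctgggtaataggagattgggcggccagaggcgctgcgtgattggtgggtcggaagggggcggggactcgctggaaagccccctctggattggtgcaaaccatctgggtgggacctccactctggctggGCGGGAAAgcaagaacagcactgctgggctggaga
MCM2 (a subunit of the helicase ring, chr3:127598161-127598440, plus strand): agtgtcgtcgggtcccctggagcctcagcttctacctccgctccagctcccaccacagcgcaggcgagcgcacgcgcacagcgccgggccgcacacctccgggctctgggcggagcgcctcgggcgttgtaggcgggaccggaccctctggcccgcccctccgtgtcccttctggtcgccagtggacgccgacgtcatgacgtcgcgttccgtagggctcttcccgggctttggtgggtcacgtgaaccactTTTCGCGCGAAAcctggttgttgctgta
MCM7 (a subunit of the helicase ring, chr7:100101368-100101647, minus strand): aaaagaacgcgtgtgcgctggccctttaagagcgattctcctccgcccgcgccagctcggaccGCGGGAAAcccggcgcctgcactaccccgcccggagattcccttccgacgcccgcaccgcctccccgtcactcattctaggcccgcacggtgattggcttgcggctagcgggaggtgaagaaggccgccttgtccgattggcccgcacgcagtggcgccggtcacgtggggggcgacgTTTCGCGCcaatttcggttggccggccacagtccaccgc

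The match lay just after the start in CDC6 and MCM2 and within 55 bases before it in GINS2, RFC3 and CLSPN, while MCM7 held matches 187 and 9 bases before the start. The input changes of these 6 genes were −3.59 (CDC6), −3.44 (GINS2), −3.40 (RFC3), −3.39 (CLSPN), −2.76 (MCM2) and −2.70 (MCM7). Of the members lower in input, 21 of 39 with a window held an E2F-type motif, and so did 0 of the 3 other tested members with a window. These 3 are too few to set against the 39. CDC45 and ORC6 are not among the matches, and 7 members had no window to search.

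Within the origin recognition complex the subunits parted. ORC6, a subunit outside the core ring, was at 23.4, 34.0 and 26.7 CPM in DMSO input and at 1.96, 1.27 and 0.42 CPM in trametinib input. Its footprints were at 39.0, 57.2 and 71.4 CPM in DMSO and at 4.39, 2.69 and 3.28 CPM in trametinib. All 6 trametinib values lay far below all DMSO values, with a change of −4.44 (SE 0.38) in input, where ORC6 passed the filter through DMSO, and −4.06 (SE 0.27) in footprints.

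ORC4, a core ATPase-fold subunit, was at 56.1, 57.0 and 35.6 CPM in DMSO input and at 41.1, 39.5 and 43.0 CPM in trametinib input. Its footprints were at 86.7, 65.3 and 79.0 CPM in DMSO and at 77.7, 67.1 and 84.8 CPM in trametinib. The groups overlapped in both assays, with changes of −0.26 (SE 0.20, adjusted p = 0.36) and −0.07 (SE 0.14, adjusted p = 0.67). ORC1, the subunit whose level cycles in dividing cells, fell by 2.75 in input and 3.71 in footprints, ORC3 fell by 1.23 and 1.17, and ORC5 fell by 0.68 and 0.83. ORC2 changed by −0.54 in input (adjusted p = 0.063) and fell by 0.45 in footprints. Its input change passed without DMSO replicate 3 (−0.71, adjusted p = 0.0083) and was −0.39 without DMSO replicate 1. The ORC5 input call was lost without trametinib replicate 2 or 3, and the ORC2 footprint call without DMSO replicate 3 or trametinib replicate 1 or 2.

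All 3 licensing factors fell in both assays. CDC6, the ATPase that helps to load the helicase ring, was at 83.4, 102 and 79.6 CPM in DMSO input and at 9.79, 4.67 and 7.17 CPM in trametinib input. Its footprints were at 140, 130 and 172 CPM in DMSO and at 9.65, 6.83 and 9.21 CPM in trametinib. Neither assay overlapped, and dish 1 was not the lowest DMSO library for CDC6 input. The change was −3.59 (SE 0.24) in input and −4.16 (SE 0.17) in footprints.

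Geminin (GMNN), the inhibitor of CDT1, changed least of the 3. It was at 28.0, 58.7 and 50.6 CPM in DMSO input and at 9.79, 12.7 and 11 CPM in trametinib input, with footprints at 89.7, 198 and 239 CPM against 47.1, 41.0 and 54.9 CPM. The groups did not overlap, and dish 1 was the lowest DMSO value in both assays. The change was −2.02 (SE 0.28) in input and −1.94 (SE 0.31) in footprints, or −2.28 and −2.26 without dish 1, and CDT1 itself changed by −2.67 and −3.89.

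All 6 subunits of the MCM2-7 ring fell in both assays, with a median of −2.42 in input and −2.89 in footprints. MCM2 was at 178, 378 and 411 CPM in DMSO input and at 47.8, 49.3 and 44.3 CPM in trametinib input, with footprints at 217, 538 and 582 CPM against 48.2, 51.9 and 49.7 CPM. MCM6 was at 140, 266 and 229 CPM in DMSO input and at 81.5, 83.7 and 63.7 CPM in trametinib input, with footprints at 255, 493 and 577 CPM against 152, 133 and 155 CPM. For both genes dish 1 was the lowest DMSO library and still lay above every trametinib library. MCM2 had the largest input change of the ring, −2.76 (SE 0.27), and MCM6 the smallest, −1.46 (SE 0.22), in footprints −3.22 (SE 0.33) and −1.65 (SE 0.26). Without dish 1, MCM2 was at −3.05 in input and −3.55 in footprints, MCM6 at −1.69 and −1.93, and MCM4 at −3.04 and −3.34.

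The 10 helicase activation genes all fell in both assays, with a median of −3.24 in input, and 4 of them (CDC45, GINS2, GINS4 and DBF4) passed the filter through DMSO. CDC45, the factor that rides with the ring as part of the active helicase, was at 30.9, 52.4 and 51.8 CPM in DMSO input and at 0.78, 1.27 and 2.53 CPM in trametinib input. Its footprints were at 31.0, 41.4 and 45.2 CPM in DMSO and at 0.77, 1.17 and 1.52 CPM in trametinib. The trametinib values were near the detection limit in input, where 2, 3 and 6 reads were counted. The mean trametinib level was 3.40% of the DMSO mean in input and 2.95% in footprints, and the change was −4.84 (SE 0.38) and −5.19 (SE 0.26).

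GINS3, a subunit of the 4-membered GINS complex, had the smallest input change in this group, while in footprints TOPBP1, CDC7 and DBF4 changed less. It was at 6.04, 12.4 and 16.6 CPM in DMSO input and at 5.48, 4.67 and 4.22 CPM in trametinib input, with footprints at 20.8, 25.6 and 28.5 CPM against 7.64, 7.24 and 6.09 CPM. Dish 1 came close to the trametinib libraries in input without overlapping them. The change was −1.25 (SE 0.38, adjusted p = 0.023) in input, a call that was lost without DMSO replicate 2 or 3 or trametinib replicate 2 or 3, and −1.89 (SE 0.17) in footprints. GINS4 had 98 input reads over the DMSO libraries and 5 over the trametinib libraries, a ratio of 17.3 after scaling with an exact 95% interval of 7.18 to 54.6 that covers counting error only. The remaining 7 genes (GINS1, GINS2, MCM10, DBF4, CDC7, TICRR and TOPBP1) fell, with input changes from −3.44 to −1.45 and footprint changes from −4.54 to −1.25.

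Of 9 polymerase and primase genes, 8 were tested and all 8 fell in both assays, with a median of −1.75 in input and −1.94 in footprints. Among these, POLE2 passed the filter through DMSO. POLE2, an accessory subunit of the leading strand polymerase epsilon, was at 20.2, 25.8 and 23.2 CPM in DMSO input and at 5.88, 4.67 and 2.11 CPM in trametinib input, with footprints at 12.7, 31.8 and 40.6 CPM against 4.49, 4.34 and 4.25 CPM. POLD2, an accessory subunit of the lagging strand polymerase delta, was at 147, 129 and 190 CPM in DMSO input and at 100.3, 70.1 and 96.2 CPM in trametinib input, with footprints at 81.7, 90 and 122 CPM against 69.3, 64.1 and 59.1 CPM. Neither gene's groups overlapped, but the gap for POLD2 was narrow. POLE2 changed by −2.42 (SE 0.31) in input and −2.76 (SE 0.38) in footprints, and POLD2 by −0.79 (SE 0.19, adjusted p = 0.0069) and −0.67 (SE 0.15). POLA1, PRIM1 and PRIM2, which lay down primers, fell by between 1.71 and 1.99 in input, and the catalytic subunits POLE and POLD1 by 1.78 and 1.18.

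Among the clamp and its loader, RFC3 changed most. RFC3, a small subunit of the loader, was at 64.6, 71.1 and 58.4 CPM in DMSO input and at 4.70, 6.80 and 6.75 CPM in trametinib input, with footprints at 79.8, 116 and 121 CPM against 11.4, 11.8 and 16.4 CPM. RFC1, the large subunit, was at 36.6, 90.6 and 38.3 CPM in DMSO input and at 63.9, 32.7 and 21.5 CPM in trametinib input, with footprints at 74.5, 89.6 and 107 CPM against 70.5, 62.7 and 71.3 CPM. RFC3 was clear of overlap in both assays, whereas RFC1 overlapped in input and was spread widely among replicates. RFC3 changed by −3.40 (SE 0.22) in input and −3.07 (SE 0.21) in footprints, and RFC1 by −0.47 (SE 0.39, adjusted p = 0.38) and −0.47 (SE 0.14, adjusted p = 0.021). The RFC1 footprint call was lost when any footprint library other than DMSO replicate 1 was left out. RFC2, RFC4 and RFC5 fell by between 2.21 and 3.24 in input, and PCNA, the sliding clamp, by 2.11 in input and 1.88 in footprints.

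Lagging strand processing held the largest disagreement between the assays. FEN1, the flap endonuclease, was at 27.3, 67.6 and 76.9 CPM in DMSO input and at 10.2, 7.22 and 2.95 CPM in trametinib input, with footprints at 61.7, 158 and 179 CPM against 16.9, 13.1 and 13.6 CPM. It fell by 3.04 (SE 0.42) in input, where it passed the filter through DMSO, and by 3.25 (SE 0.36) in footprints, with no overlap. LIG1, the ligase that seals Okazaki fragments, fell by 1.89 and 1.96. DNA2 is described with ribosome density.

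All 4 fork protection genes fell in both assays, CLSPN having passed the filter through DMSO. CLSPN, which relays checkpoint signals at the fork, was at 31.6, 71.5 and 51.0 CPM in DMSO input and at 5.09, 3.40 and 5.90 CPM in trametinib input, with footprints at 38.2, 87.9 and 105 CPM against 5.83, 5.24 and 6.97 CPM. TIMELESS, which forms a fork-stabilising pair with TIPIN, was at 104, 160 and 139 CPM in DMSO input and at 54.8, 79.5 and 65.4 CPM in trametinib input, with footprints at 80.2, 113 and 117 CPM against 48.7, 46.6 and 46.0 CPM. The groups were apart for both genes in both assays. CLSPN changed by −3.39 (SE 0.34) in input and −3.74 (SE 0.36) in footprints, and TIMELESS by −1.0 (SE 0.20) and −1.20 (SE 0.15). WDHD1, which couples polymerase alpha to the helicase, fell by 2.3 and 2.97, and TIPIN by 1.13 and 1.35. The TIPIN input call was lost without DMSO replicate 2 or trametinib replicate 1.

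The single-strand DNA binding proteins changed least as a group after the ORC, with a median of −1.22 in input. RPA3, the smallest RPA subunit, was at 60.0, 79.6 and 61.5 CPM in DMSO input and at 18.0, 27.6 and 23.2 CPM in trametinib input, with footprints at 175, 275 and 260 CPM against 71.4, 69.4 and 97.2 CPM. RPA1, the large subunit, was at 131, 198 and 213 CPM in DMSO input and at 98.7, 102 and 100.4 CPM in trametinib input, with footprints at 301, 521 and 568 CPM against 276, 281 and 311 CPM. RPA1 footprints overlapped between treatments through DMSO dish 1 and the highest trametinib library, and the other 3 contrasts of these genes did not overlap. RPA3 changed by −1.54 (SE 0.21) in input and −1.64 (SE 0.20) in footprints, and RPA1 by −0.83 (SE 0.18, adjusted p = 0.0043) and −0.74 (SE 0.21, adjusted p = 0.018). The RPA1 footprint call was lost without DMSO replicate 2 or 3 or trametinib replicate 1 or 2.

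The proportions of subunits within complexes were compared per kilobase of coding sequence, so that levels of different genes could be set side by side. Each subunit's share of its complex was computed in every library, which sets the fall that the subunits share aside. Of 24 subunits in 5 complexes, 17 had input shares and 19 had footprint shares that did not overlap between treatments, and for 15 the share moved the same way in both assays. These shares are descriptions with no test. Shares within a complex sum to a fixed total, so its subunits are not separate observations. No such count was taken for other sets of genes.

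In the MCM2-7 ring, whose subunits are present once each in the complex, MCM6 took 9.50% ± 0.96 (SD, n = 3) of input in DMSO and 17.8% ± 2.51 in trametinib, and 13.9% ± 1.01 and 28.6% ± 1.52 of footprints. MCM3 also took more, from 16.5% ± 0.82 to 21.7% ± 1.11 of footprints. MCM7 took less, from 33.5% ± 4.16 to 26.1% ± 2.42 of input and from 27.3% ± 3.15 to 13.9% ± 0.55 of footprints. MCM2 took less in both assays, and MCM5 moved up in input and down in footprints. In DMSO footprints MCM7 was the highest subunit at 347 ± 119 CPM per kilobase and MCM5 the lowest at 135 ± 54.4. In trametinib footprints MCM6 was the highest at 59.6 ± 4.88 and MCM2 the lowest at 18.4 ± 0.70, and MCM2 and MCM5 (19.9 ± 1.56) did not differ by more than their spread.

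The ORC subunits lay close together in DMSO input, with the highest subunit (ORC5) 1.73 times the lowest (ORC1). They lay far apart in trametinib input, where ORC4 was 19.6 times ORC6. That ratio is imprecise, since ORC6 had 5, 3 and 1 reads there. In footprints the ratio of highest to lowest went from 4.17 to 42.2. ORC4 took 20.1% ± 5.71 of DMSO footprints and 37.3% ± 1.61 of trametinib footprints, while ORC6 went from 24.2% ± 3.06 to 2.92% ± 0.77 and ORC1 from 5.70% ± 1.83 to 0.90% ± 0.30. For RFC the spread narrowed instead, with the ratio of highest to lowest going from 7.08 to 2.66 in footprints as RFC1 rose from 5.36% ± 0.85 to 18.2% ± 0.80 of the complex. In GINS, GINS3 took 16.1% ± 5.31 of DMSO footprints and 33.0% ± 6.53 of trametinib footprints, and GINS2 25.8% ± 4.86 and 11.4% ± 1.35. RPA1 took 23.6% ± 1.92 of RPA footprints in DMSO and 35.1% ± 1.83 in trametinib, and RPA3 62.4% ± 2.65 and 48.6% ± 3.58.

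**Figure D3:**
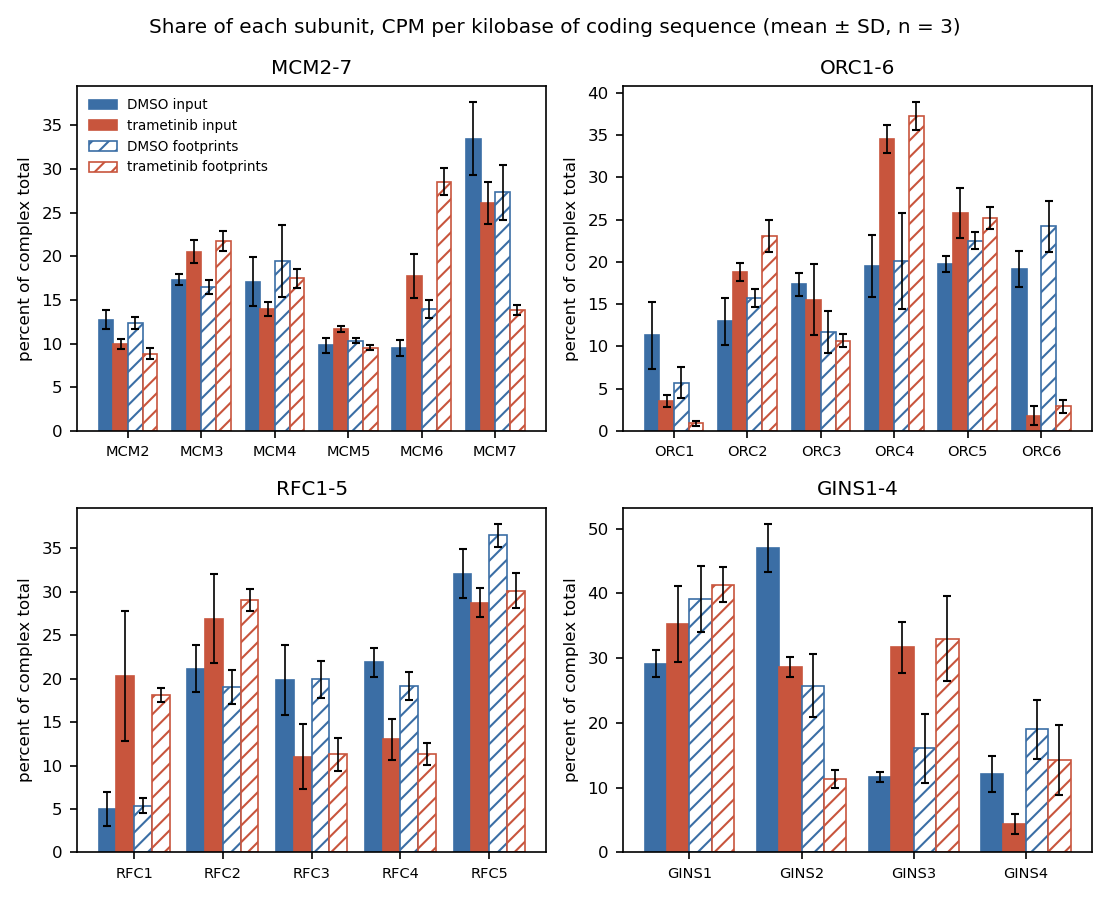
Share of each subunit in its complex (y axis, percent of the summed CPM per kilobase of coding sequence) for 4 complexes (x axis, subunits), as mean ± SD of 3 libraries in each of the 4 groups. Filled bars are input and hatched bars footprints. MCM6, ORC4, RFC1 and GINS3 take more of their complex in trametinib in both assays, and MCM7, ORC6, RFC3, RFC4 and GINS2 take less.

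Ribosome density, the footprint level of a gene over its input level, was compared between treatments as the interaction of assay and treatment over all 12 libraries. Relative to other mRNAs, it changed little for most replication genes. Libraries were scaled to each other, so a change shared by all mRNAs would not show. By polysome profiling, the study reported that trametinib lowered translation globally in this cell line. Of 49 genes, 1 fell and 0 rose, while 0.816% of all genes tested fell and 0.0938% rose. The 1 was DNA2, included with its fall already known, so the count is not read against that share. No other member passed. The median was −0.12 against 0.070 over all genes tested, and the median SE of 0.39 limits what could be seen. Only 3 genes had an unadjusted p under 0.05 (DNA2, DBF4 and MCM7), as had 939 of 10663 genes tested. By role, the median estimate ran from −0.50 for the licensing factors to 0.29 for the clamp and its loader, and 0 genes of these 2 groups passed the test. Scaling by library totals moved the median of all genes tested to 0.18 and that of the 49 genes to −0.0081, so the sign of estimates near 0 was not read.

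DNA2, a nuclease and helicase that trims long flaps of Okazaki fragments and resects DNA ends, had been included with its fall in ribosome density already known, so its values are a description. Input was at 24.5, 31.8 and 29.4 CPM in DMSO and at 17.2, 20.0 and 22.4 CPM in trametinib. Footprints were at 18.2, 25.7 and 29.4 CPM in DMSO and at 4.49, 3.59 and 4.57 CPM in trametinib. Trametinib lay below DMSO in both assays without overlap, by a small step in input and a large one in footprints. The change was −0.51 (SE 0.21) in input, which did not pass the test (adjusted p = 0.076), −2.59 (SE 0.21) in footprints and −2.0 (SE 0.29) in ribosome density, a 4.01-fold lower density.

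Per dish, DNA2 had 0.743, 0.807 and 1.002 footprints per input unit (CPM over CPM) in DMSO and 0.261, 0.180 and 0.204 in trametinib. On this scale every trametinib dish lay well below every DMSO dish. These values rest on 69, 90 and 76 input reads in DMSO and 44, 47 and 53 in trametinib. Across 24 alternative settings, where changed call thresholds leave the estimate as it was, the density change lay between −2.18 and −1.84. Without both libraries of DMSO dish 1 it was −2.10. DNA2 spans 68414064 to 68472121 on the minus strand of chromosome 10 (Gencode v44, GRCh38), and the counts cover its reading frame only.

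Input and footprints of a dish came from the same lysate according to the study's methods, so the interaction was also fitted with a term for each dish. This lowered the median SE of the 49 genes to 0.24 and gave 3 lower and 0 higher, against 1.19% of all genes tested that were lower. DNA2, known to fall when it was included, does not count towards this comparison. The 3 were DNA2 at −1.98 (SE 0.25), MCM7 at −0.84 (SE 0.16, adjusted p = 0.0084) and MCM10 at −1.12 (SE 0.26, adjusted p = 0.043). Without the dish term MCM7 was at −0.87 (adjusted p = 0.42) and MCM10 at −1.11 (adjusted p = 0.61).

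The library values of MCM7, MCM10 and DBF4 were chosen for printing after they had been seen. MCM7 was at 468, 699 and 761 CPM in DMSO input and at 90.5, 97.3 and 107 CPM in trametinib input, with footprints at 460, 834 and 954 CPM against 58.9, 61.8 and 66.7 CPM. Its density per dish was 0.984, 1.19 and 1.25 in DMSO and 0.651, 0.635 and 0.625 in trametinib, with no overlap. Leaving out both libraries of DMSO dish 1 gave MCM7 −0.97 (adjusted p = 0.0038), and 2 lower genes in all, DNA2 and MCM7. MCM10, a factor that switches the helicase on, was at 37.6, 87.4 and 87.7 CPM in DMSO input and at 6.66, 5.95 and 8.01 CPM in trametinib input, with footprints at 45.1, 85.6 and 105 CPM against 3.82, 2.90 and 3.85 CPM. The MCM10 dishes gave a mean density of 1.13 ± 0.13 (SD, n = 3) in DMSO and 0.513 ± 0.052 in trametinib.

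DBF4, the regulatory subunit of the CDC7 kinase, had the highest ribosome density estimate of the 49 genes. Input was at 80.2, 82.8 and 63.0 CPM in DMSO and at 11.4, 2.97 and 11 CPM in trametinib. Footprints were at 34.8, 36.6 and 55.2 CPM in DMSO and at 12.7, 11.9 and 11.8 CPM in trametinib. Input and footprints were both clear of overlap, the input value of trametinib replicate 2 resting on 7 reads. DBF4 fell by 3.13 (SE 0.31) in input and by 1.86 (SE 0.19) in footprints, and its density change of 1.35 (SE 0.40) did not pass the test (adjusted p = 0.22). Per dish the density was 0.434, 0.442 and 0.876 in DMSO and 1.12, 4.01 and 1.07 in trametinib. Without the trametinib input library of replicate 2 the estimate was 0.92 (adjusted p = 0.47), and DESeq2 on all libraries gave 1.28 (adjusted p = 0.049). CDC7, its kinase partner, had a density change of 0.22 (SE 0.41).

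**Figure D4:**
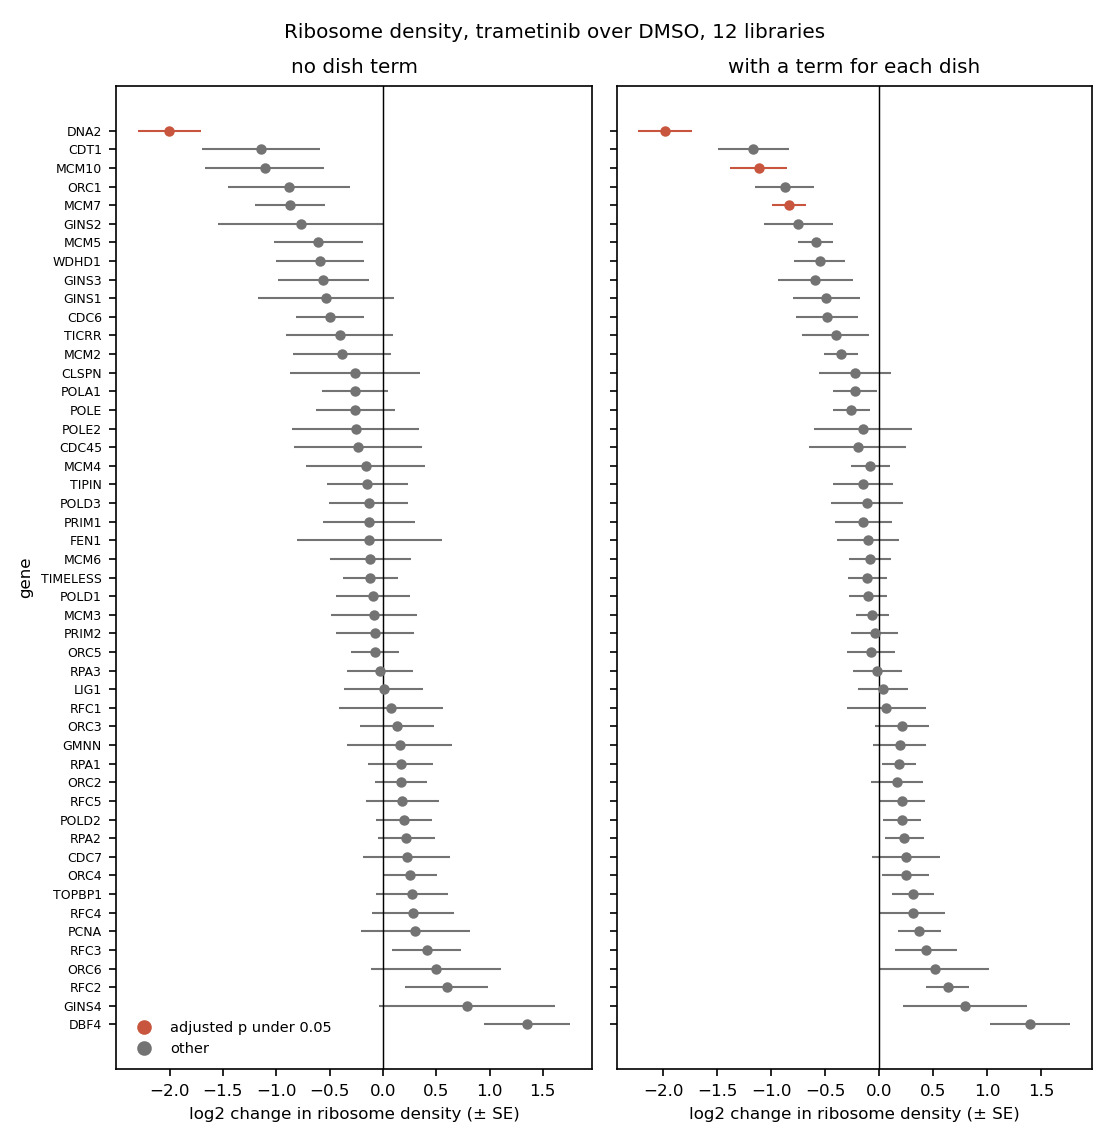
Log2 change in ribosome density, trametinib over DMSO (x axis), for the 49 genes tested (y axis, ordered by the left panel), without (left) and with (right) a term for each dish. Bars are ± 1 SE and red marks an adjusted p under 0.05. DNA2 lies apart at −2.0 on the left, and MCM7 and MCM10 join it on the right, where the bars are shorter.

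**Figure D5:**
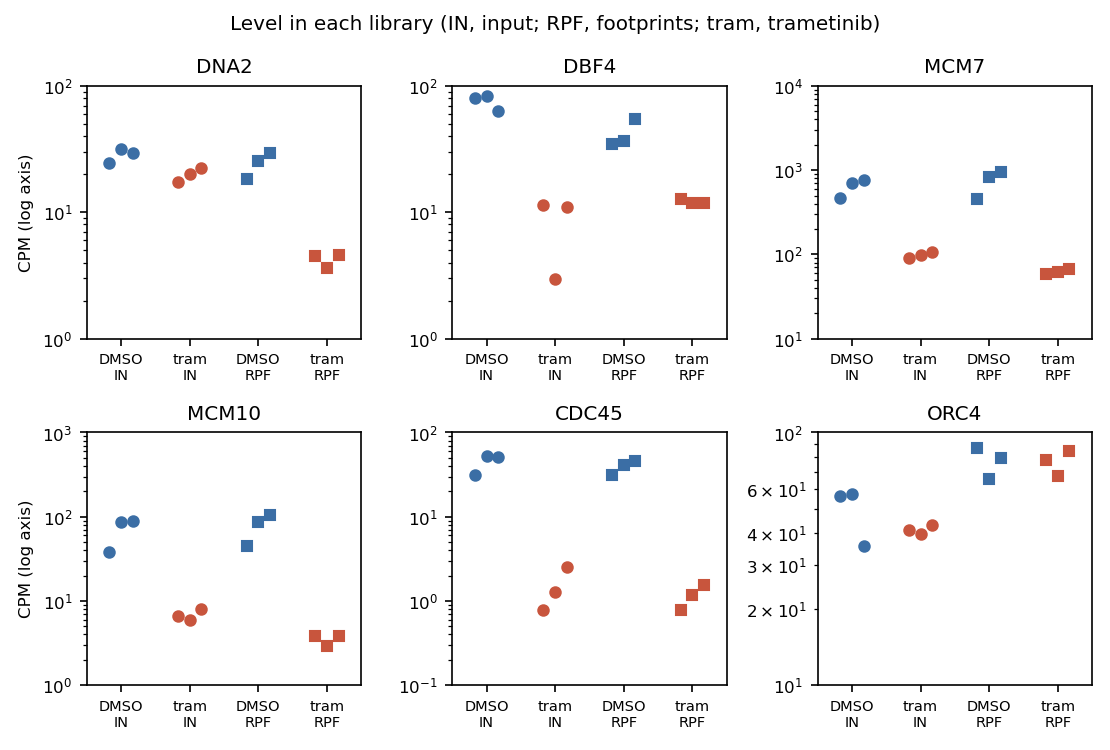
CPM in each library (y axis, log scale) of 6 genes in DMSO (blue) and trametinib (red), with input as circles and footprints as squares, in the order of replicates 1 to 3. DNA2 input drops little while its footprints drop from between 18.2 and 29.4 to between 3.59 and 4.57 CPM, CDC45 drops in both assays and ORC4 overlaps in both.

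In untreated cells the density of footprints differed widely among replication mRNAs. The mean over the 3 DMSO dishes ran from 0.377 ± 0.0071 (SD, n = 3) for TICRR to 3.76 ± 0.83 for GMNN, with a median of 1.47 over the 49 genes against 1.03 over all genes tested. PCNA was at 3.58 ± 0.49 and RPA3 at 3.53 ± 0.66, and these and GMNN did not differ by more than their spread. At the other end, DBF4 was at 0.584 ± 0.253, TOPBP1 at 0.557 ± 0.0999 and POLD1 at 0.604 ± 0.0665, again within their spread, and only TICRR lay below them. In all, 22 of 49 genes were above the upper quartile of all genes tested (1.57) and 5 of 49 below the lower quartile (0.637). Input and footprint counts were both taken on the reading frame, so its length divides out of the ratio. Density may still vary with length. The frames of GMNN, PCNA and RPA3 have 627, 783 and 363 bases. Those of TICRR, TOPBP1, POLD1 and DBF4 have 5730, 4566, 3321 and 2022. A link of density to length was not tested.

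A list of 39 other replication factors, among them histone chaperones, topoisomerases and checkpoint genes, was set beside the machinery. Some, such as TRAIP with 4, 6 and 4 reads in trametinib input, passed the filter through their DMSO counts, so the counts of falls are a description. Of all genes tested, 16.8% fell in input and 25.6% in footprints. Of 37 listed factors tested, 27 fell and 0 rose in input with a median of −1.44. In footprints 30 fell and 0 rose with a median of −1.53, and 0 passed for ribosome density, where 3 had an unadjusted p under 0.05. The lowest input changes were −3.70 (SE 0.27) for ASF1B, a histone H3-H4 chaperone, and −3.66 (SE 0.18) for TOP2A, the topoisomerase that untangles daughter chromosomes. The highest were −0.12 (SE 0.41) for POLE4 and 0.15 (SE 0.23) for MCM9, neither past the test. MCM9, a relative of the ring subunits, is not part of MCM2-7.

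The E2F and RB regulators, which switch replication genes on and off, were less uniform. Of 25 tested, 16 fell and 2 rose in input, 15 fell and 2 rose in footprints, and 0 passed for ribosome density, where 1 had an unadjusted p under 0.05. CCNA2, the S phase cyclin A, changed by −4.89 (SE 0.24) in input and E2F1, an activating E2F, by −4.25 (SE 0.42). Both passed the filter through DMSO, with 13, 11 and 6 trametinib input reads for CCNA2 and 8, 5 and 3 for E2F1. E2F2, E2F7, E2F8 and CCNE2 did so too, so the counts of falls are a description. Of all genes tested, 16.8% fell and 15.4% rose in input, and 25.6% and 23.9% in footprints. RBL2, the RB relative p130, rose by 0.58 (SE 0.14, adjusted p = 0.0077), and CDK6, a G1 kinase, by 0.77 (SE 0.27, adjusted p = 0.042). Of 12 ERK output genes, 12 fell in input and in footprints, with medians of −4.08 and −5.03. Input changes ran from −7.63 for DUSP6 and −6.94 for SPRY4 to −1.58 for SPRED1 and −0.90 for PHLDA1. Many of the 12 passed the filter through their DMSO counts, so these counts and medians are a description. Trametinib input held 5, 3 and 0 reads of DUSP6 and 2, 1 and 1 of SPRY4.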

How the data were processed

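The authors removed adapters, discarded reads aligning to rRNA and tRNA with Bowtie 1.2.2, mapped the rest to Gencode transcripts (GRCh38) and counted reads inside the reading frames of a single gene symbol. The deposited table holds these raw counts for 12 libraries, the authors' normalized signal columns (in 12 of 12 libraries the count times a constant), and the authors' log2 fold changes and adjusted p-values from DESeq2 1.46.0, which were not used. No column of values per library was left without a sample (0 in all).

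Counts were analysed with edgeR 4.0.16 (quasi-likelihood F-test, TMM, two-sided) in R 4.3.3. The test covered the 10663 genes with 10 or more counts in 3 or more input libraries, p-values were adjusted by Benjamini-Hochberg over all of them, and an adjusted p under 0.05 was called. Input and footprints were fitted on 6 libraries each, and ribosome density as an interaction over 12. The same steps were also run on simulated data for each comparison, with the rates of recovered changes and false calls not given here. Levels are CPM over TMM-scaled totals. SE is the log2 change over the root of F.

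Alternatives covered scaling, filter, threshold, DESeq2 1.42.0, limma 3.58.1 (limma-trend, prior count 2), a block for replicate number or dish, and leaving out each library. Leaving out both libraries of DMSO dish 1 was added after seeing the data. Input and footprint libraries of equal treatment and number were taken as 1 dish, since the methods of the study derive both from the same lysate. Over 7668 genes, the deviations of the 2 libraries of a dish from their groups had correlations of 0.817, 0.182 and 0.345 (DMSO) and 0.142, 0.0794 and −0.126 (trametinib) by Pearson's r across genes, which are not independent replicates.

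The 50 members and the gene lists were chosen with earlier results of these data known. By the naming rule, values per library are given for members called for ribosome density and for the member with the largest and the smallest input change in each role group, and from each other list the 2 lowest and 2 highest input changes. Coding lengths come from Gencode v44 canonical transcripts in place of the planned RefSeq proteins, and promoters from RefSeq GRCh38.p14 (250 bases before to 50 after the start), the printed ones from outside chromosome 8. Depth was lower in input than in footprints, which limits ribosome density.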

Additional observations from a re-analysis of the deposited data

How the results depend on the processing

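Of 64 counts and shares recomputed with all or all but 1 dish of libraries, 61 kept their value within 1.5-fold or within the replicate SD, and so did 59 of 60 with 1 library left out. Ribosome density gave 1 higher member with DESeq2 (DBF4), 2 lower without both libraries of DMSO dish 1 (DNA2 and MCM7) and 3 lower with the replicate block for each dish (DNA2, MCM7 and MCM10). With 1 library left out, lower members ranged from 43 to 46 in input, from 45 to 48 in footprints and from 1 to 2 for ribosome density, the 2 without DMSO footprint replicate 1. A replicate block by number, which joins treated and untreated dishes that share only a number (correlations of 0.0501 to 0.342 in input and 0.117 to 0.294 in footprints), gave 46 lower in input, 48 in footprints and 1 for ribosome density.

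Single members kept direction and call in 1019 of 1038 values with all or all but 1 dish of libraries, and in 718 of 744 with 1 left out. For ribosome density these tallies held only the members with the larger estimates, not those near 0. The median density change of the 49 genes, −0.12 with all libraries, was 0.11 without DMSO input replicate 1. It was 0.099 without DMSO footprint replicate 3. With 1 library left out, RFC1 input, not called, ranged from −1.01 to 0.090, above 0 without DMSO input replicate 2. ORC4 footprints, not called, ranged from −0.16 to 0.020, above 0 without DMSO replicate 1 and at 0.0085 without trametinib replicate 2, and were at 0.10 with library totals. The cause was not tested. Library totals moved the median footprint change of all genes to 0.16 and of the members to −1.94, with 45 lower. Footprint calls of ORC2, RFC1 and RPA1 were lost under library totals. Without DMSO input replicate 1, DNA2 input passed (−0.61, adjusted p = 0.036), as did ORC2 input without DMSO replicate 3 (−0.71, adjusted p = 0.0083) and with the replicate block by number (−0.52, adjusted p = 0.045). Input depth limits the ribosome density results.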
